A study of Mus musculus with 6 samples.

Results

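The genes described here are 10 genes of nicotinamide adenine dinucleotide (NAD) metabolism in a mouse embryonic fibroblast (MEF) system: Nampt, Nmnat1, Nmnat2, Nmnat3, Naprt and Nadsyn1, which make NAD, and Sirt1, Sirt3, Sirt6 and Parp1, whose products consume it. They were taken as a list of symbols, matched to NCBI Gene identifiers, from the 27179 genes in the count tables, and all 10 were among the 14069 genes with enough counts to be tested. mRNA was sequenced from the CPN-/- line and from derivatives that express exogenous CRY1 (CPN-/- CRY1) or exogenous CRY2 (CPN-/- CRY2), with 2 libraries of each line, to ask what each CRY protein does to gene expression. All 3 lines carry Cry1-/-, Cry2-/-, Per1-/-, Per2-/-, Nr1d1-/- and Nr1d2-/-, so every line lacks PER1, PER2, NR1D1 and NR1D2, and the lines differ in the added CRY. The mouse Cry1 or Cry2 cDNA was brought in by a virus with the pWZL-blast vector and is driven by a viral promoter, and each CRY line grew from a single colony resistant to blasticidin, so an effect of the CRY protein and a property of that 1 clone cannot be told apart. The labels give no treatment, and each library stands for an RNA preparation of its own, so that p-values measure the spread between preparations of the same line.

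NAD carries electrons in glycolysis and respiration and is also cut by enzymes that use it as a substrate, so cells must remake it. In the salvage route NAMPT turns nicotinamide into nicotinamide mononucleotide and is the rate-limiting step, the NMNAT enzymes then add the adenylyl group, and in the Preiss-Handler route NAPRT starts from nicotinic acid and NADSYN1 adds the final amide. Sirtuins use NAD to remove acyl groups from proteins and PARP1 uses it to build ADP-ribose chains at DNA breaks, and Nampt is known as an E-box clock output, a gene that the CLOCK-BMAL1 dimer activates through CACGTG elements and that CRY proteins restrain in a working clock.

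The start regions of 3 of the genes are shown because Nampt is the known clock output, whereas Sirt1 and Parp1 were the members whose windows held the canonical E-box. Each sequence is the 250 bases before a RefSeq transcription start on GRCm38.p6, 5' to 3' on the strand of the gene, with CACGTG in capitals. The windows are chr12:32820085-32820334 on the plus strand for Nampt, chr10:63339036-63339285 on the minus strand for Sirt1 and chr1:180568641-180568890 on the plus strand for Parp1.
Nampt: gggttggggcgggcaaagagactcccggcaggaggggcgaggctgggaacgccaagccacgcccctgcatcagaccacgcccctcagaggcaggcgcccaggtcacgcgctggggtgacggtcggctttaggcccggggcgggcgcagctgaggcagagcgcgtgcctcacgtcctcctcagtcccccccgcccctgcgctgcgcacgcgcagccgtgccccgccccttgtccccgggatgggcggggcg
Sirt1: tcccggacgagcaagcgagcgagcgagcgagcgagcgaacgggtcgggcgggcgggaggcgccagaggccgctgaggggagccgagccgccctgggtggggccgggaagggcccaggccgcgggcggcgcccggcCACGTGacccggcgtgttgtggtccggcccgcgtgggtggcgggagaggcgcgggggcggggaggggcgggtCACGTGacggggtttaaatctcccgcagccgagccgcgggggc
Parp1: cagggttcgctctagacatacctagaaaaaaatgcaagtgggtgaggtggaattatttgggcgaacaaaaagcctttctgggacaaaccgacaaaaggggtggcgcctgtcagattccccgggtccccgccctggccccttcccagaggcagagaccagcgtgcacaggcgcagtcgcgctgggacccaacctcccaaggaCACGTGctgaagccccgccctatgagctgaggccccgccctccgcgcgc

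RefSeq windows from 250 bases before to 50 bases after a start were found for 9 of the 10 genes, in 12 windows, and none was found for Naprt. The letters CACGTG, which read the same on both strands, stood in 2 of the 12 windows, against 7.15% of 32851 windows over 27025 genes. Sirt1 held the element 115 and 43 bases upstream of its start, and Parp1 held it 49 bases upstream. The related letters CACGTT, or AACGTG on the other strand, stood in 1 member window, that of Nmnat2, against 4.68% of all windows. No match was found in the Nampt window, which says only that these letters are not within these bases.

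Levels were compared between lines in CPM, the reads of a gene scaled to the library total after TMM scaling, and between genes in RPKM, which also divides by exon length. The totals ran from 25957409 to 36106949 counts per library, and the 10 genes had between 19 and 6138 counts in any library. The labels were checked first on the genes put back. Cry1 mRNA was 124.9 and 114.7 CPM in CPN-/-, 165.2 and 189.6 CPM in CPN-/- CRY1 and 51.0 and 48.29 CPM in CPN-/- CRY2, and rose in CPN-/- CRY1 (log2 fold change 0.57, adjusted p = 0.0126). Cry2 mRNA was 136 and 129 CPM in CPN-/-, 50.69 and 51.7 CPM in CPN-/- CRY1 and 349 and 350.9 CPM in CPN-/- CRY2, and rose in CPN-/- CRY2 (log2 fold change 1.40, adjusted p = 0.000584). Each CRY line thus had the highest mRNA of its own Cry gene, and reads of a disrupted gene and of the cDNA cannot be told apart in these counts. The 10 fibroblast markers summed to between 10100 and 16600 CPM, highest in CPN-/- CRY2, although Thy1 and Lum stood at 7 counts or fewer in every library and Dcn between 1 and 61 counts. Epithelial, leukocyte and endothelial markers each summed to at most 2.31 CPM. In these bulk samples, fewer cells of a type and less RNA per cell cannot be told apart. The 2 CPN-/- libraries differed from each other more than those of the other lines (SD over genes of the log2 difference 0.461, against 0.283 in CPN-/- CRY1 and 0.299 in CPN-/- CRY2), and that difference followed exon length (Spearman's rho -0.58 across 12478 genes, which are not independent replicates).

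Of the 10 genes, Nmnat2 was the one that changed in both CRY lines, and it fell in both. In CPN-/- CRY1 against CPN-/-, 1 of the 10 genes was called at an adjusted p under 0.05 (quasi-likelihood test of edgeR, Benjamini-Hochberg adjusted over all tested genes). Of all tested genes, 24.3% were called (11.2% higher and 13.1% lower), and whether the count in 10 genes differs from that share was not tested. In CPN-/- CRY2 against CPN-/-, 1 of the 10 was called, where 6.66% of all tested genes were (2.58% higher and 4.08% lower). Both comparisons use the same CPN-/- libraries. The direct comparison of CPN-/- CRY1 with CPN-/- CRY2 called 2 of the 10, Nmnat2 (higher in CPN-/- CRY1) and Naprt (lower), beside 16.3% of all tested genes (7.72% higher and 8.57% lower).

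Against CPN-/-, the other members changed by less than Nmnat2. The log2 fold change was smaller than 0.5 in size in 8 of the 10 genes in each of the 3 comparisons. The share of all tested genes under that size was not counted. Apart from Nmnat2 the log2 fold change reached at the lowest -0.67 and at the highest 0.39 with CRY1, and -0.40 and 0.58 with CRY2. In the direct comparison it ran from -1.25, for Naprt, to 0.14. The median over the 10 genes was -0.29 in CPN-/- CRY1, with 9 of 10 below zero, and -0.076 in CPN-/- CRY2, with 5 of 10 below zero, whereas the median of all tested genes was -0.0073 and -0.0076. The libraries of the lines compared did not overlap for 10 of the 10 genes in CPN-/- CRY1 against CPN-/- and for 8 of 10 in CPN-/- CRY2 against CPN-/-, but this was also so for 66.9% and 55.1% of all tested genes. In the direct comparison it was so for 6 of 10 genes, against 73.3% of all tested genes. At an unadjusted p under 0.05 the members numbered 5, 3 and 4 in the 3 comparisons, where 40.3%, 24.4% and 30.8% of all tested genes passed, so these counts lie near the rate of all genes.

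**Figure D1:**
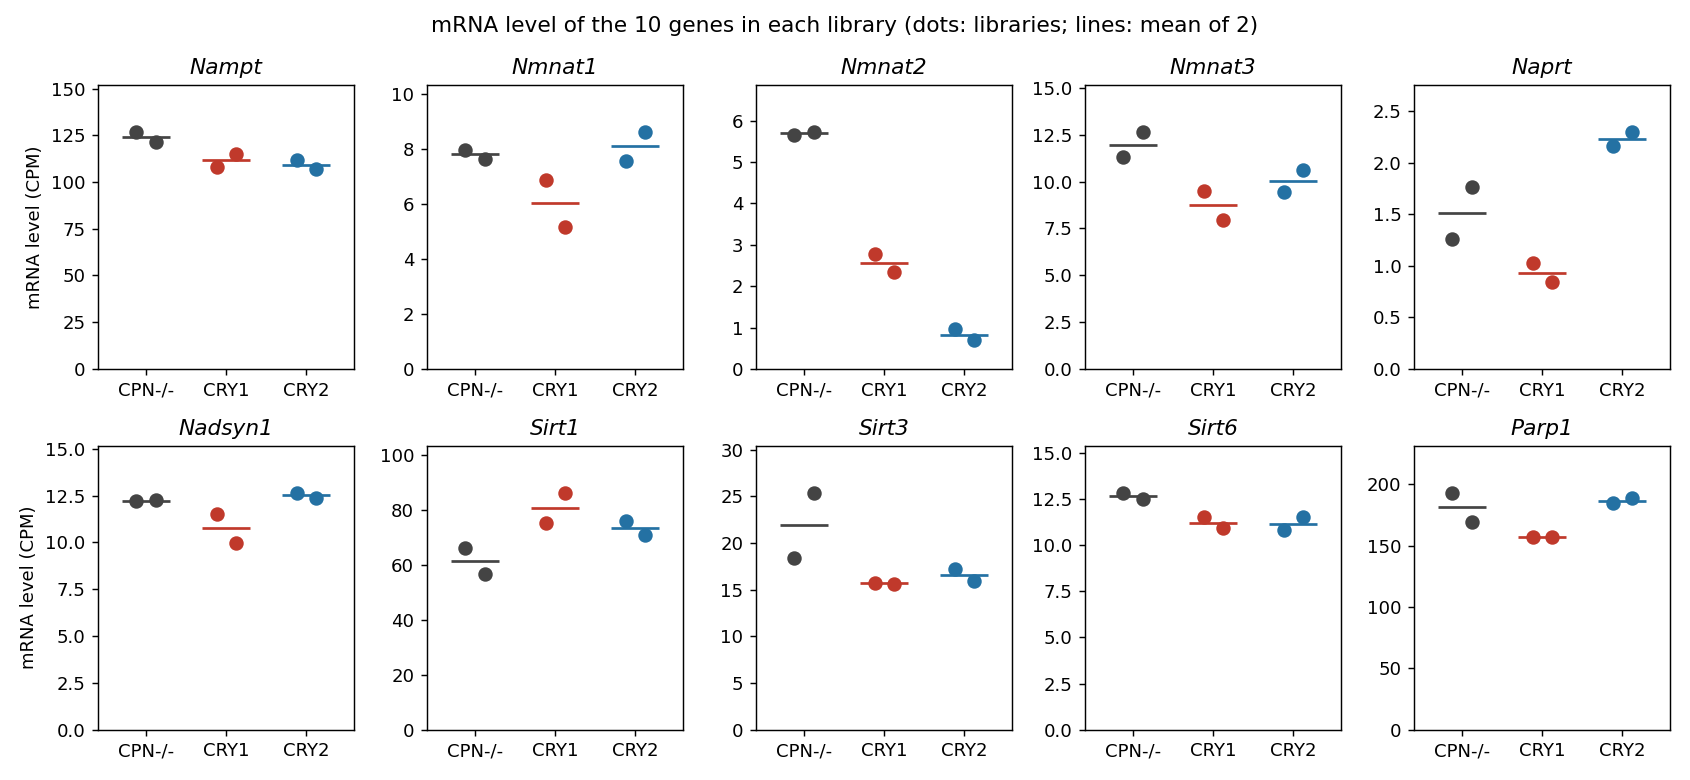
mRNA level in CPM of each of the 10 genes, from zero on each axis, with 1 dot for each library and a line at the mean of the 2 libraries of CPN-/-, CPN-/- CRY1 and CPN-/- CRY2. Nmnat2 steps down from about 5.7 CPM in CPN-/- to below 1 CPM in CPN-/- CRY2, and most of the other genes differ little between lines.

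**Figure D2:**
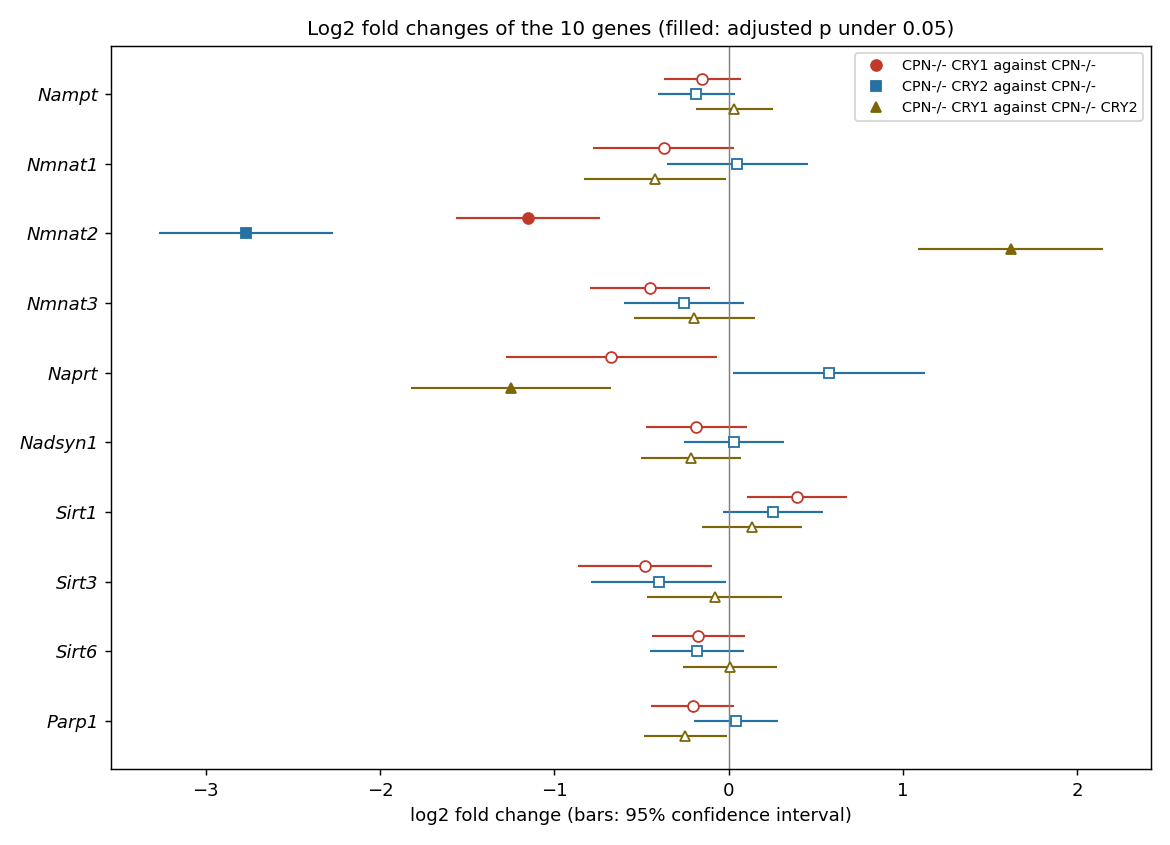
Log2 fold change of each of the 10 genes (horizontal axis) in the 3 comparisons, with bars for the 95% confidence interval of the edgeR fit and filled symbols for an adjusted p under 0.05. Nmnat2 is filled in each comparison and Naprt in the direct comparison of the CRY lines.

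Nampt (chr12:32820335-32853369, plus strand) encodes the salvage enzyme and is the known clock output among the 10 genes. Its level was 126.6 and 121.2 CPM in CPN-/-, 108.1 and 115.2 CPM in CPN-/- CRY1 and 111.5 and 106.7 CPM in CPN-/- CRY2. Both CPN-/- libraries lay above all 4 CRY libraries, and the 2 CRY lines overlapped. The difference from CPN-/- did not pass the test in CPN-/- CRY1 (log2 fold change -0.15, SE 0.093, 95% interval -0.37 to 0.07, adjusted p = 0.264) or in CPN-/- CRY2 (log2 fold change -0.18, SE 0.093, interval -0.41 to 0.04, adjusted p = 0.267). The CRY lines differed from each other by 0.034 on the log2 scale, with an interval from -0.19 to 0.25 (adjusted p = 0.858). Leaving out CPN-/- replicate 2 brought both comparisons with CPN-/- past the threshold, at -0.17 and -0.21. In that fit more of all tested genes were called as well.

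Of 7 other E-box outputs of the clock that were listed, 7 lay further below zero than Nampt in CPN-/- CRY1. In CPN-/- CRY2 Tef (-0.20) lay close to Nampt and Bhlhe41 (0.057) above it, and these differences from Nampt were not tested. The knocked-out Per1, Per2, Nr1d1 and Nr1d2, to which the study also ascribes E-boxes, were not in the list. They were at -1.97, -2.295, -0.34 and -0.28 in CPN-/- CRY1 and at -1.25, -1.085, 0.074 and -0.15 in CPN-/- CRY2. Per1 and Per2 passed in both lines, and Nr1d1 and Nr1d2 passed in neither. The list of 7 such genes, which encode the PAR bZIP factors Dbp, Tef and Hlf, the period gene Per3 and the repressors Ciart, Bhlhe40 and Bhlhe41, had 7 of 7 genes lower in CPN-/- CRY1 (13.1% of all tested genes were lower). Their median log2 fold change was -2.22, from -0.96 for Bhlhe41 to -4.61 for Hlf. In CPN-/- CRY2 4 of 7 were lower, with a median of -1.15 (4.08% of all tested genes were lower). These were Dbp at -1.21 (adjusted p = 0.00647), Hlf at -2.01 (0.00561), Ciart at -1.42 (0.0011) and Bhlhe40 at -1.15 (0.0039), and this number dropped to 1, Ciart, without either CPN-/- CRY2 library. Bhlhe41 was lost in CPN-/- CRY1 without CPN-/- CRY1 replicate 1 (-0.91, adjusted p = 0.0777) or replicate 2 (adjusted p = 0.0665).

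Dbp, whose product activates D-box genes, shows the size of this response by library, at 62.56 and 70.73 CPM in CPN-/-, 14.97 and 11.06 CPM in CPN-/- CRY1 and 27.3 and 30.28 CPM in CPN-/- CRY2. The 3 lines did not overlap. Tef, Per3 and Bhlhe41 did not pass in CPN-/- CRY2, at -0.20 (adjusted p = 0.27), -0.62 (0.119) and 0.057 (0.823). For Bhlhe41, the least reduced of the 7 in CPN-/- CRY1, the 95% interval of the log2 fold change there ran from -1.32 to -0.60, and that of Nampt from -0.37 to 0.07, although the difference between Nampt and these genes was not tested. Of the 7 clock outputs, 6 had RefSeq windows, 7 in number, and 4 windows of 3 genes (Tef, Ciart and Bhlhe41) held CACGTG. Tef lies on chromosome 15 and Ciart on chromosome 3. The medians over tested genes of these chromosomes were -0.36 and -0.28 in CPN-/- CRY1, and their part in the results was not tested.

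**Figure D3:**
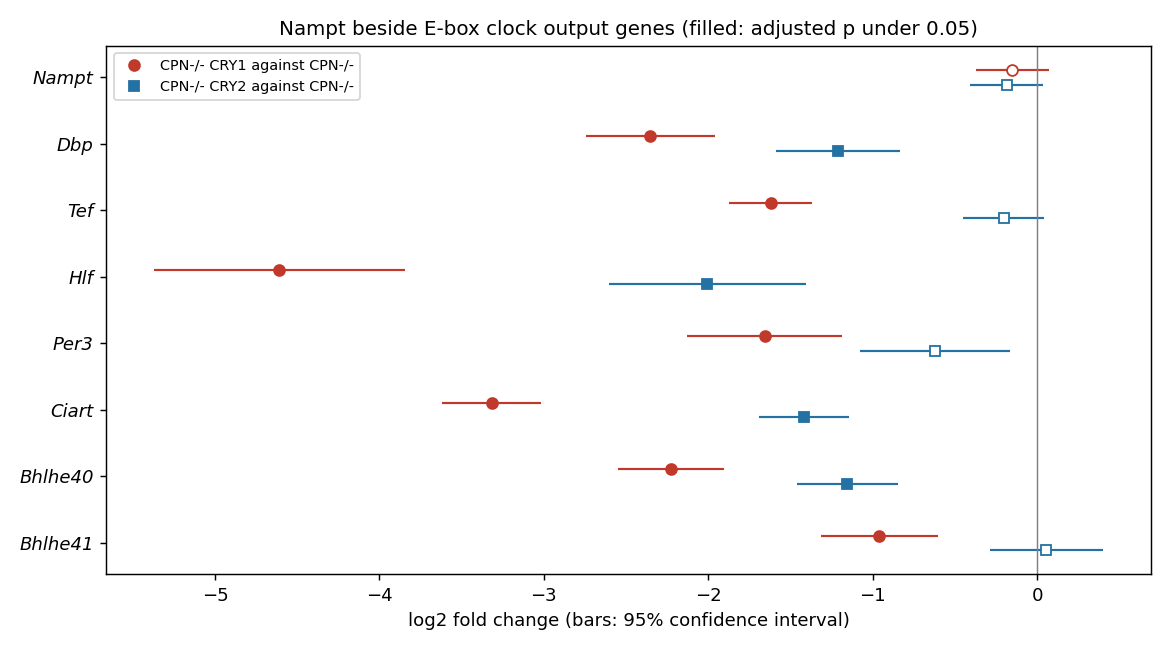
Log2 fold change of Nampt and of 7 E-box clock output genes in CPN-/- CRY1 (circles) and CPN-/- CRY2 (squares) against CPN-/-, with 95% confidence intervals and filled symbols for an adjusted p under 0.05. The 7 outputs are filled in CPN-/- CRY1, with values from -0.96 to -4.61, while Nampt lies at -0.15 and -0.18.

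Genes whose pattern was most like that of Nampt were found by the Euclidean distance between log2 CPM values centred on the mean of each gene, over the 6 libraries and among 9878 genes with a mean of at least 10 CPM. Among the nearest were Arhgap22 (distance 0.0627), Ptp4a2 (0.0628), Tti2 (0.0749) and Ipo5 (0.0766). Their log2 fold changes lay between -0.21 and -0.10 in both CRY lines against CPN-/-.

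The 3 Nmnat genes encode the enzymes that join nicotinamide mononucleotide to the adenylyl group, and they differ in where the enzyme works. Nmnat2 (chr1:152954781-153119266, plus strand), which encodes the form found at the Golgi and in the cytosol, was 5.659 and 5.718 CPM in CPN-/-, 2.767 and 2.335 CPM in CPN-/- CRY1 and 0.9553 and 0.7041 CPM in CPN-/- CRY2. The lines did not overlap, and the order was CPN-/-, then CPN-/- CRY1, then CPN-/- CRY2. The values rest on 180 and 149 counts in CPN-/-, 100 and 72 counts in CPN-/- CRY1 and 26 and 19 counts in CPN-/- CRY2, so the lowest level is the least precise.

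Nmnat2 fell in CPN-/- CRY1 by 1.15 in log2 units (SE 0.175, 95% interval -1.57 to -0.74, adjusted p = 0.00561), which is 2.22-fold lower. It fell in CPN-/- CRY2 by 2.77 (SE 0.211, interval -3.27 to -2.27, adjusted p = 0.000903), which is 6.82-fold lower. In the direct comparison Nmnat2 was higher in CPN-/- CRY1 by 1.62 (SE 0.225, interval 1.09 to 2.15, adjusted p = 0.00486). The call held under 16 of 16 other settings in CPN-/- CRY2, under 15 in CPN-/- CRY1 and under 14 in the direct comparison. It was lost in CPN-/- CRY1 without CPN-/- CRY1 replicate 2 (-1.04, adjusted p = 0.0738), and in the direct comparison without CPN-/- CRY1 replicate 1 (1.49, adjusted p = 0.0532) or CPN-/- CRY2 replicate 2 (1.41, adjusted p = 0.0607). The summed fibroblast markers were also highest in CPN-/- CRY2, and their part in this result was not tested.

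Nmnat1 (chr4:149467569-149485210, minus strand), the gene of the nuclear enzyme, was 7.954 and 7.637 CPM in CPN-/-, 6.862 and 5.157 CPM in CPN-/- CRY1 and 7.569 and 8.598 CPM in CPN-/- CRY2. The CPN-/- CRY1 libraries were the lowest and the other lines overlapped. Neither the log2 fold change of -0.37 in CPN-/- CRY1 (SE 0.171, adjusted p = 0.15) nor that of 0.051 in CPN-/- CRY2 (SE 0.17, adjusted p = 0.864) passed. The direct difference of -0.42 did not pass either (adjusted p = 0.148). The difference in CPN-/- CRY1 passed under 1 of 16 other settings, without CPN-/- replicate 2 (-0.39). The direct difference passed under 3, among them those without CPN-/- replicate 1 or 2 (-0.42 in both). A stretch of at least 150 bases at 95% identity or more is shared between Nmnat1 transcripts and those of 31 other genes, so reads there may be split between genes and this level is uncertain.

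Nmnat3 (chr9:98287433-98420533, plus strand), the gene of the mitochondrial enzyme, was 11.32 and 12.63 CPM in CPN-/-, 9.518 and 7.947 CPM in CPN-/- CRY1 and 9.443 and 10.6 CPM in CPN-/- CRY2. The CPN-/- libraries were the highest and the CRY lines overlapped. Against CPN-/-, the Nmnat3 log2 fold changes were -0.45 for CPN-/- CRY1 (SE 0.145, adjusted p = 0.0626) and -0.26 for CPN-/- CRY2 (SE 0.145, adjusted p = 0.313). The first of these passed under 3 of 16 other settings and the second under 1. Without CPN-/- replicate 1 they were -0.53 and -0.33, and without CPN-/- replicate 2 they were -0.36 and -0.17.

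Per unit of exon length, Nmnat1 and Nmnat3 made up most of the Nmnat mRNA in every library. Nmnat2 held 16.7% and 16.4% of the summed Nmnat RPKM in the CPN-/- libraries, 10.3% and 10.9% of it in those of CPN-/- CRY1, but 3.64% and 2.4% in those of CPN-/- CRY2. The share followed the same order of lines as the Nmnat2 level. The summed level therefore differed between lines by less than Nmnat2 did.

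**Figure D4:**
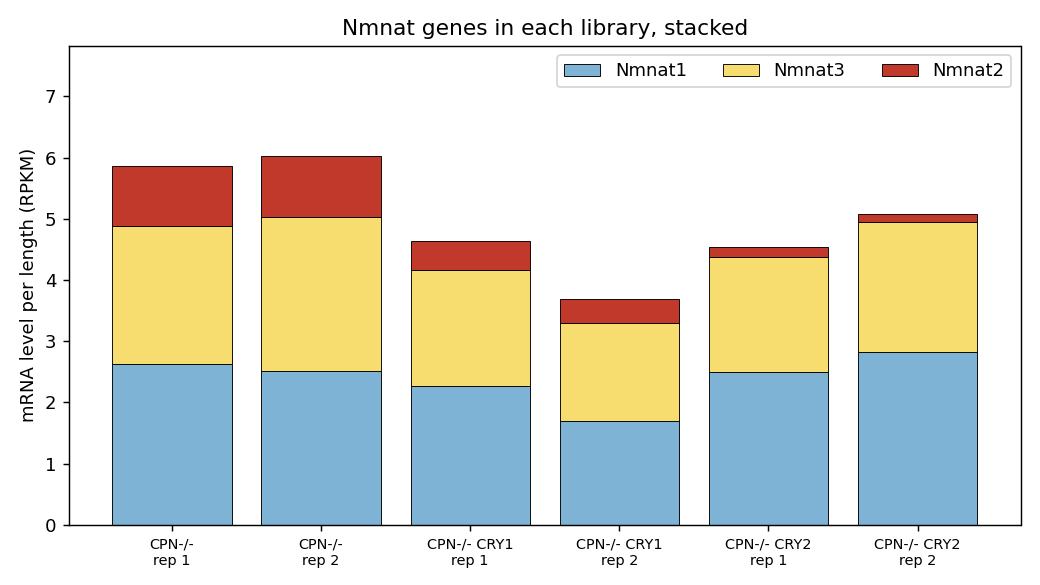
Level per exon length (RPKM) of Nmnat1, Nmnat3 and Nmnat2, stacked from zero for each of the 6 libraries. The Nmnat2 segment shrinks from 0.979 and 0.989 RPKM in CPN-/- to 0.479 and 0.404 RPKM in CPN-/- CRY1 and 0.165 and 0.122 RPKM in CPN-/- CRY2.

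Naprt (chr15:75890963-75894481, minus strand), which starts the Preiss-Handler route from nicotinic acid, separated the CRY lines. It was 1.258 and 1.765 CPM in CPN-/-, 1.024 and 0.8434 CPM in CPN-/- CRY1 and 2.168 and 2.298 CPM in CPN-/- CRY2. The lines did not overlap, with CPN-/- between the CRY lines, and the values rest on 26 to 62 counts per library. Naprt mRNA in CPN-/- CRY1 was below that in CPN-/- CRY2 (log2 difference -1.25, SE 0.243, 95% interval -1.82 to -0.67, adjusted p = 0.0165). Against CPN-/- it did not pass in CPN-/- CRY1 (-0.67, SE 0.255, adjusted p = 0.0956) or in CPN-/- CRY2 (0.58, SE 0.232, adjusted p = 0.192).

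The Naprt call in the direct comparison was lost without any 1 of the 4 CRY libraries. The values were -1.40 without CPN-/- CRY1 replicate 1 (adjusted p = 0.0972), -1.12 without CPN-/- CRY1 replicate 2 (0.144), -1.29 without CPN-/- CRY2 replicate 1 (0.102) and -1.21 without CPN-/- CRY2 replicate 2 (0.127). Against CPN-/-, Naprt passed in CPN-/- CRY1 without CPN-/- replicate 1 (-0.91, adjusted p = 0.0121) and in CPN-/- CRY2 without CPN-/- replicate 2 (0.83, adjusted p = 0.0332), but with the other CPN-/- library left out it was -0.41 (adjusted p = 0.321) and 0.34 (adjusted p = 0.314). The gene lies on chromosome 15, where the median of 530 tested genes was -0.43 in the direct comparison and 44.2% of them were called. The part of that chromosome-wide difference in the Naprt result was not tested, and Naprt lay 0.815 below that median. It also shares 277 exon bases with Eef1d on the same strand, where reads of the 2 genes cannot be told apart.

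Nadsyn1 (chr7:143795589-143822862, minus strand), which adds the amide that completes NAD, was 12.2 and 12.28 CPM in CPN-/-, 11.54 and 9.991 CPM in CPN-/- CRY1 and 12.64 and 12.38 CPM in CPN-/- CRY2. The libraries of the 3 lines did not overlap, but the gap between CPN-/- and CPN-/- CRY2 was small. For Nadsyn1 the log2 fold change was -0.18 with CRY1 (95% interval -0.47 to 0.10, adjusted p = 0.291) and 0.031 with CRY2 (interval -0.26 to 0.32, adjusted p = 0.885). Per exon length, Nampt exceeded Naprt in every library, with an RPKM ratio of 46.7 and 31.9 in the CPN-/- libraries, 49 and 63.4 in those of CPN-/- CRY1, and 23.8 and 21.5 in those of CPN-/- CRY2. The ratio was lowest in CPN-/- CRY2, where Naprt was highest.

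Sirt1 (chr10:63319005-63339035, minus strand) encodes a nuclear deacetylase that acts on clock proteins, and it was the member with higher values in both CRY lines. It was 66.27 and 56.72 CPM in CPN-/-, 75.26 and 86.12 CPM in CPN-/- CRY1 and 75.98 and 70.93 CPM in CPN-/- CRY2. Both CPN-/- libraries lay below all CRY libraries, and the CRY lines overlapped. In CPN-/- CRY1 the log2 fold change of 0.39 lay just outside the threshold (SE 0.121, 95% interval 0.10 to 0.68, adjusted p = 0.0566), and in CPN-/- CRY2 it was 0.26 (SE 0.121, adjusted p = 0.245). The CPN-/- CRY1 difference passed in DESeq2's Wald test (0.40, adjusted p = 0.0354) and under 4 other settings. Of these, 2 were without CPN-/- replicate 1 (0.51) or CPN-/- replicate 2 (0.29), fits in which more of all tested genes were called as well. Without CPN-/- replicate 1, Sirt1 also passed in CPN-/- CRY2 (0.37, adjusted p = 0.000174), but without CPN-/- replicate 2 it was 0.16 there (adjusted p = 0.158). Its exons share 65 bases with Gm16145 on the opposite strand.

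Sirt3 (chr7:140863663-140882309, minus strand), which encodes the main mitochondrial deacetylase, was 18.45 and 25.37 CPM in CPN-/-, 15.77 and 15.6 CPM in CPN-/- CRY1 and 17.2 and 15.94 CPM in CPN-/- CRY2. The CPN-/- libraries were the highest, but they differed from each other by 0.459 on the log2 scale. For Sirt3 this gave log2 fold changes of -0.48 with CRY1 (SE 0.162, adjusted p = 0.0717) and -0.40 with CRY2 (SE 0.163, adjusted p = 0.193). Without CPN-/- replicate 1 these were -0.69 and -0.61, and without CPN-/- replicate 2 they were -0.23 and -0.15, so the size rests on which CPN-/- library is used. The CPN-/- CRY1 difference passed under 3 of 16 other settings and the CPN-/- CRY2 difference under 1. Sirt3 shares 342 exon bases with Psmd13 and 418 with Ric8a on the opposite strand, and the strand setting of the counting is not given in the sources used here.

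Sirt6 (chr10:81621787-81627792, minus strand), a chromatin deacylase, was 12.83 and 12.51 CPM in CPN-/-, 11.54 and 10.93 CPM in CPN-/- CRY1 and 10.8 and 11.53 CPM in CPN-/- CRY2. The CPN-/- libraries were slightly higher and the CRY lines overlapped. Relative to CPN-/-, Sirt6 stood at -0.17 on the log2 scale in CPN-/- CRY1 (95% interval -0.44 to 0.09, adjusted p = 0.285) and at -0.18 in CPN-/- CRY2 (interval -0.45 to 0.09, adjusted p = 0.35).

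Parp1 (chr1:180568891-180600999, plus strand), the gene of the main DNA damage-activated ADP-ribosyl polymerase, was 193 and 169.6 CPM in CPN-/-, 157.4 and 157.1 CPM in CPN-/- CRY1 and 184.6 and 189.1 CPM in CPN-/- CRY2. The CPN-/- CRY1 libraries were the lowest, and CPN-/- overlapped CPN-/- CRY2. Relative to CPN-/-, Parp1 stood at -0.20 on the log2 scale in CPN-/- CRY1 (95% interval -0.44 to 0.03, adjusted p = 0.174) and at 0.044 in CPN-/- CRY2 (interval -0.20 to 0.28, adjusted p = 0.803). The direct difference was -0.25 (SE 0.101, adjusted p = 0.148). In a fit of only the 4 CRY libraries it was -0.25 with an adjusted p of 0.000326, and it also passed without CPN-/- replicate 1 or 2. In these fits more of all tested genes were called as well. The comparison of CPN-/- CRY1 with CPN-/- passed under 2 of 16 other settings. It was -0.29 without CPN-/- replicate 2 but -0.11 without CPN-/- replicate 1.

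Per exon length the 10 genes kept a wide spread of levels in every line. The mean over the 6 libraries was 33.1 RPKM for Parp1, 22.7 RPKM for Nampt and 13.5 RPKM for Sirt1, and the next in order, Sirt6, was at 4.2 RPKM. Nadsyn1, Sirt3, Nmnat1 and Nmnat3 followed with 3.58, 3.02, 2.4 and 2.05 RPKM. Nadsyn1, Sirt3 and Nmnat1 each overlapped the next gene in this order over the 6 libraries. Naprt at 0.665 RPKM and Nmnat2 at 0.523 RPKM were the lowest, and their ranges over libraries overlapped, at 0.36 to 0.98 RPKM and 0.122 to 0.989 RPKM. Among neighbours in the order, Parp1 and Nampt did not overlap over the 6 libraries, with lowest and highest values of 29.7 and 36.5 RPKM for Parp1 and 21.1 and 25.0 RPKM for Nampt, nor did Nampt and Sirt1, which reached 16.2 RPKM. Of the 7 sirtuin genes, Sirt1 with 25.6% to 36.6% and Sirt2 with 26.7% to 30.7% held the largest parts of the summed sirtuin RPKM. Sirt3 and Sirt6 held at most 10.2% and 11%. These levels divide by the merged length of all exons (5973 bases for Sirt3). The annotation used for counting is not given, so the order of genes is approximate.

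The calls for the 10 genes depended on single libraries, both those of CPN-/- and those of the CRY lines. In CPN-/- CRY1 against CPN-/-, 5 of the 10 passed without CPN-/- replicate 1, 6 without CPN-/- replicate 2 and 0 without CPN-/- CRY1 replicate 2. In CPN-/- CRY2 against CPN-/-, 4 passed without CPN-/- replicate 1 and 3 without CPN-/- replicate 2. In the direct comparison 4 passed without either CPN-/- library, 0 without CPN-/- CRY1 replicate 1 or CPN-/- CRY2 replicate 2, and 1 without CPN-/- CRY1 replicate 2 or CPN-/- CRY2 replicate 1. The calls over all tested genes moved in the same fits as well, and whether the 10 genes moved differently was not tested. In the comparison of CPN-/- CRY1 with CPN-/-, 63% of all tested genes were called without CPN-/- replicate 1, 44.1% without CPN-/- replicate 2 and 4.64% without CPN-/- CRY1 replicate 2. In that of CPN-/- CRY2 with CPN-/- the shares were 56.4% and 22.1% without CPN-/- replicate 1 and 2. In the direct comparison they were 48.4% and 47.7% without CPN-/- replicate 1 and 2, and between 3.32% and 3.42% without a CRY library. A line left with 1 library is assumed to vary like the others in these fits.

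Other genes of NAD metabolism were taken from 7 lists with 41 genes, of which 33 were tested. The other 8 had at most 8 counts in any library, among them Ido1, Kmo, Kynu, Haao and Qprt of the de novo route from tryptophan, the kinase gene Nmrk2 and the NAD glycohydrolase genes Cd38 and Bst1. In CPN-/- CRY1 against CPN-/-, 11 of 33 passed, 7 higher and 4 lower, with a median log2 fold change of 0.077, beside 24.3% of all tested genes called. In CPN-/- CRY2, 3 of 33 passed, 2 higher and 1 lower, with a median of -0.028, beside 6.66% of all tested genes. The direct comparison called 6 of 33, 4 higher and 2 lower in CPN-/- CRY1, with a median of 0.099, beside 16.3% of all tested genes. In each comparison the list was thus near the rate of all genes. These numbers move with single libraries, to 22 without CPN-/- replicate 1 and to 2, 4, 6 and 6 without CPN-/- CRY1 replicate 1 or 2 or CPN-/- CRY2 replicate 1 or 2 in the first comparison. In the second they moved to 17 and 9 without CPN-/- replicate 1 and 2 and to 1 and 0 without CPN-/- CRY2 replicate 1 and 2, and in the direct comparison to 17 without either CPN-/- library and to 3 without any 1 CRY library.

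Among the genes that feed or draw on the synthesis routes, Nt5e and Nadk2 changed in both CRY lines. Nt5e encodes CD73, which removes phosphate from extracellular nucleotides, and was 3.867 and 2.264 CPM in CPN-/-, 1.051 and 0.9082 CPM in CPN-/- CRY1 and 0.8451 and 0.7041 CPM in CPN-/- CRY2. Both CPN-/- libraries were above all CRY libraries. Its log2 level fell by 1.65 in CPN-/- CRY1 (adjusted p = 0.0108) and by 1.99 in CPN-/- CRY2 (adjusted p = 0.0156). The first call was lost without CPN-/- CRY1 replicate 1 (-1.76, adjusted p = 0.0808) or replicate 2 (-1.55, 0.0983), and the second without CPN-/- CRY2 replicate 1 (-2.12, 0.111) or replicate 2 (-1.86, 0.146).

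Nadk2, the mitochondrial NAD kinase gene, moved in opposite directions. It was 152.8 and 152.5 CPM in CPN-/-, 73.19 and 71.13 CPM in CPN-/- CRY1 and 263.2 and 290.8 CPM in CPN-/- CRY2. The lines did not overlap. Nadk2 fell by 1.08 in CPN-/- CRY1 (adjusted p = 0.000805) and rose by 0.86 in CPN-/- CRY2 (adjusted p = 0.00357). The fall held under 16 of 16 other settings, and the rise was lost without CPN-/- CRY2 replicate 2 (0.80, adjusted p = 0.0646). Like Naprt it lies on chromosome 15, with a median over tested genes of -0.36 in CPN-/- CRY1 but of 0.048 in CPN-/- CRY2, and the part of the chromosome in the result was not tested. Aox1, whose product oxidizes methylated nicotinamide, rose by 0.50 in CPN-/- CRY1 (adjusted p = 0.0497), a call that held under 4 of 16 other settings and was lost without any 1 CRY library (0.38 to 0.61, adjusted p from 0.0995 to 0.285).

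In the family of Parp1, 16 other genes of ADP-ribose addition and removal were tested, and 6 were higher and 1 lower in CPN-/- CRY1 (11.2% and 13.1% of all tested genes), while 1 was higher in CPN-/- CRY2 (2.58% of all tested genes). Parp2, the closest relative of Parp1 in the DNA damage response, fell by 0.60 in CPN-/- CRY1 (adjusted p = 0.0158), at 35.21 and 42.45 CPM in CPN-/- and 26.76 and 24.42 CPM in CPN-/- CRY1. Parp9, which pairs with the ubiquitin ligase DTX3L, rose by 1.22 in CPN-/- CRY1 (adjusted p = 0.00128), from 33.89 and 31.39 CPM to 83.51 and 68.77 CPM, and was 33.91 and 34.76 CPM in CPN-/- CRY2. The Parp9 libraries of CPN-/- CRY1 were thus well above those of both other lines, and this call held under 16 of 16 other settings. That of Parp2 was lost without any 1 CRY library (-0.67 to -0.53, adjusted p from 0.0531 to 0.159).

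Parp3 rose by 0.78 (adjusted p = 0.00357), Parp8 by 0.47 (0.0187), Parp12 by 0.64 (0.00532), Parp14 by 0.84 (0.02) and the tankyrase gene Tnks2 by 0.61 (0.0173) in CPN-/- CRY1. Without CPN-/- CRY1 replicate 1 these 5 calls were lost, at 0.74 (adjusted p = 0.0558), 0.42 (0.17), 0.57 (0.0803), 0.70 (0.15) and 0.67 (0.1) in the same order. Without CPN-/- CRY1 replicate 2, Parp8 (0.52, adjusted p = 0.117), Parp14 (0.97, 0.0822) and Tnks2 (0.55, 0.153) were lost, and Parp8 and Tnks2 were also lost without either CPN-/- CRY2 library (adjusted p = 0.065 and 0.0521 at the lowest). None of these 5 passed in CPN-/- CRY2, where the one that rose was Tiparp, a mono-ADP-ribosyltransferase gene (log2 fold change 0.65, adjusted p = 0.0272), a call lost without any 1 CRY library (0.64 to 0.67, adjusted p from 0.0875 to 0.214). Parp14 was at -0.77 there (adjusted p = 0.0681). Parp9 and Parp14 lie on chromosome 16, with a median of 0.27 over its tested genes in CPN-/- CRY1, and Tnks2 on chromosome 19, with a median of 0.31, and the part of these chromosomes in the results was not tested. Of the 4 sirtuin genes outside the 10, the mitochondrial Sirt4 fell by 0.46 in CPN-/- CRY1 (adjusted p = 0.0312), at 12.36 and 13.55 CPM in CPN-/- and 9.186 and 9.634 CPM in CPN-/- CRY1. This call was lost without any 1 CRY library (-0.49 to -0.43, adjusted p from 0.0931 to 0.21), and the other 3 sirtuin genes did not pass in any comparison.

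**Figure D5:**
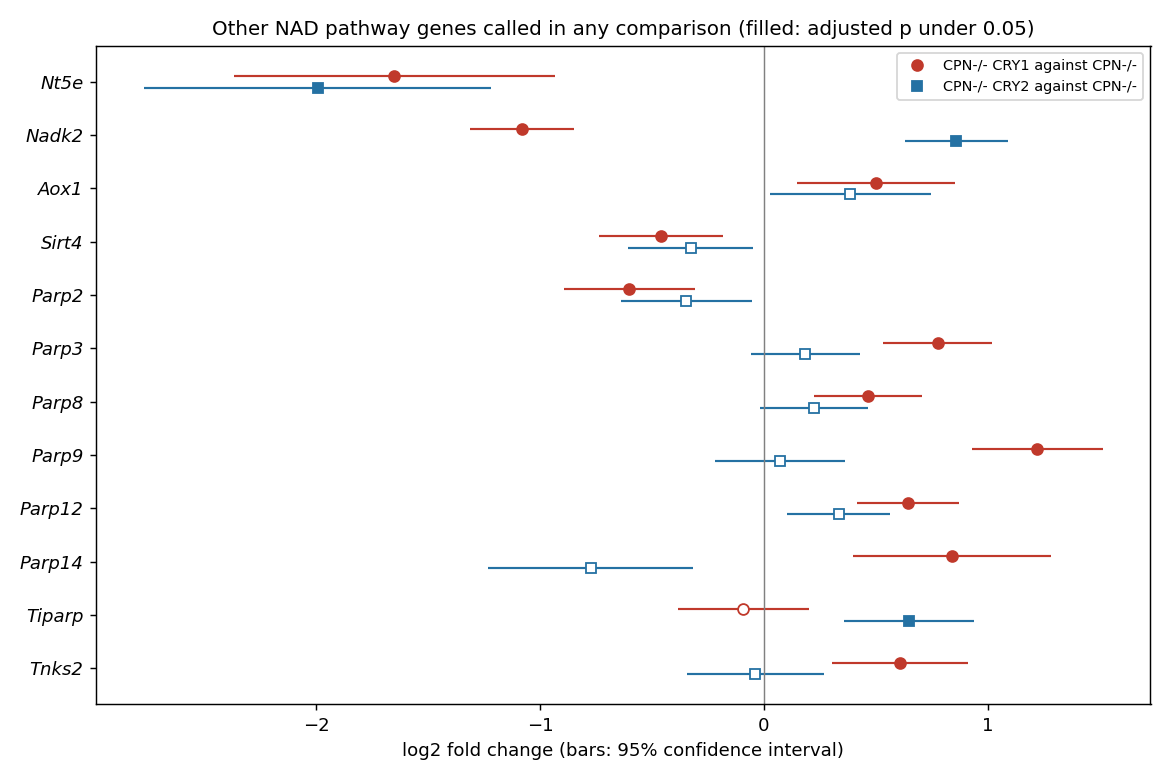
Log2 fold change of the 12 other NAD pathway genes called in at least 1 comparison, for CPN-/- CRY1 (circles) and CPN-/- CRY2 (squares) against CPN-/-, with 95% confidence intervals and filled symbols for an adjusted p under 0.05. Nt5e is lower in both lines, Nadk2 is at -1.08 and 0.86, and 6 PARP family genes are filled on the higher side in CPN-/- CRY1.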

How the data were processed

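mRNA of 6 libraries was analysed from the deposited tables of whole read counts per gene, which the authors made by mapping stranded paired-end poly(A) RNA reads to mm10 with STAR and counting them with featureCounts. The gene annotation, strand setting and treatment of reads with several matches are not given in the sources used here. The tables were used without further scaling, and replicates were not pooled. The fold changes of the study were not used.

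Genes were kept by filterByExpr (minimum 10 counts at median library size, 15 counts in total), which left 14069 of 27179. Counts of all 6 libraries were scaled by TMM and fitted by line with edgeR 4.0.16 in R 4.3.3 (robust quasi-likelihood test, two-sided), and p-values were adjusted over all tested genes by the Benjamini-Hochberg method, with a threshold of 0.05. The SE was the log2 fold change divided by the root of the F statistic, and intervals are 95% intervals. Symbols and gene positions came from RefSeq (GRCm38.p6, 25275 identifiers matched), and strands and merged exon lengths from GENCODE M21 (GRCm38). RPKM was computed here from CPM and these lengths, which 12478 tested genes (88.7%) have.

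The members and lists were chosen with earlier results of these data known. All 10 members were named, as were the knocked-out genes Cry1, Cry2, Per1, Per2, Nr1d1 and Nr1d2. Other NAD pathway and clock output genes were named where they passed in any comparison, and otherwise counted, apart from the 8 NAD pathway genes too low to test, which were named after their counts were seen. Of the 5 genes nearest to Nampt, 4 were named and 1 is not reported here. The alternatives were other scalings and filters, a replicate block, removal of the length trend, a fit of the 4 libraries compared, DESeq2 1.42.0, a threshold of 0.01 and leaving out each library.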

Additional observations from a re-analysis of the deposited data

Results flagged for a closer look

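For 15 genes the difference between the effects of the 2 CRY lines was itself past the threshold in edgeR's quasi-likelihood test of CPN-/- CRY1 against CPN-/- CRY2 with Benjamini-Hochberg adjustment, each as a log2 difference with positive values for a higher level in CPN-/- CRY1. In this comparison 16.3% of all 14069 tested genes were called. The 15 genes are 2 of the 10 members, 6 of the 33 other pathway genes tested and 7 of the 7 clock outputs. The first 2 of these counts lie near the share of all genes. Of the 10 genes, those past the threshold were Nmnat2 at 1.62 and Naprt at -1.25. Of the other NAD pathway genes, they were Nadk2 at -1.94, Parp3 at 0.59, Parp9 at 1.15, Parp14 at 1.61, Tiparp at -0.74 and Tnks2 at 0.65. Of the clock outputs, they were Dbp at -1.14, Tef at -1.42, Hlf at -2.60, Per3 at -1.04, Ciart at -1.90, Bhlhe40 at -1.07 and Bhlhe41 at -1.02. Nadk2, Parp9, Parp14, Tef, Ciart and Bhlhe40 kept this call under 16 of 16 other settings, whereas Naprt, Parp3, Tiparp, Tnks2 and Bhlhe41 lost it without any 1 CRY library. The clock output number dropped to 3 without CPN-/- CRY1 replicate 2 and to 4 without CPN-/- CRY2 replicate 2. Tiparp and Ciart lie on chromosome 3, where the median over tested genes was -0.40 in this comparison, and Tnks2 on chromosome 19 (0.46). Parp9 and Parp14 lie on chromosome 16 (0.35), and Naprt, Nadk2 and Tef on chromosome 15 (-0.43). The part of the chromosomes was not tested.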

How the results depend on the processing

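Of 480 fold changes of the 10 genes under 16 alternatives, 437 kept their direction and side of the threshold, 28 passed newly, 8 no longer passed and 7 changed sign. The changes of sign were in values near zero. Leaving out 1 library each gave log2 fold changes from -0.034 to 0.146 for Nmnat1 and from -0.039 to 0.14 for Parp1 in CPN-/- CRY2 against CPN-/-, and from -0.011 to 0.079 for Nampt and from -0.036 to 0.053 for Sirt6 in the direct comparison, where Sirt6 was at -0.0034 with upper-quartile factors. No scaling moved the median of all genes by more than 0.05.

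In CPN-/- CRY1 against CPN-/-, members called numbered 3 with no filter, 5 with the length trend removed and 2 with DESeq2; with only the 4 libraries compared, other pathway genes numbered 6 and all genes 1798, and at 0.01 they numbered 4 and 1184. In CPN-/- CRY2 against CPN-/-, other pathway genes numbered 5 with the length trend removed and 1 at 0.01, and all genes 583 with at least 10 counts in every library, 1637 with the length trend removed, 473 with 4 libraries and 363 at 0.01. In the direct comparison, members numbered 4 with 4 libraries and 1 at 0.01, other pathway genes 10 with the length trend removed and 17 with 4 libraries, and all genes 3747, 6838 and, at 0.01, 854. A threshold of 0.01 can only lower these numbers, and the cause of the other moves was not tested.

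Leaving out 1 library each gave 0 to 6, 1 to 4 and 0 to 4 members in the 3 comparisons, 2 to 22, 0 to 17 and 3 to 17 other pathway genes, 6 to 7, 1 to 6 and 3 to 7 clock outputs, and 663 to 8980, 199 to 8046 and 475 to 6897 of all genes.

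Replicate numbers are shared between lines, and the deviations of same-numbered libraries from their line means correlated at -0.058, 0.10 and -0.026. The difference between replicates followed exon length at a rho of -0.58 in CPN-/-, 0.19 in CPN-/- CRY1 and -0.24 in CPN-/- CRY2. With 2 libraries a line, these values cannot decide whether same-numbered libraries share a batch. With a replicate block, 1, 1 and 2 members were called, 10, 4 and 7 other pathway genes, 7, 5 and 7 clock outputs, and 3458, 977 and 2188 of all genes, and the Aox1 call was lost (0.50, adjusted p = 0.0641).

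Precision is limited by 2 preparations a line and, for Nmnat2 and Naprt, by counts of 19 to 62 in several libraries. Each CRY line is 1 clone.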
